A study of Mus musculus with 8 samples.

Results

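Immediate early genes and heat shock genes were examined in the stromal vascular fraction (SVF) of gonadal white adipose tissue (WAT). The 10 genes were Fos, Fosb, Jun, Junb, Egr1, Atf3, Ier2, Ier3, Hspa1a and Hspa1b. They were chosen by name from the 54532 genes in the table of counts, as genes known to be induced by tissue digestion and by stress, with earlier results of these data known. Differences between treatments are therefore a description of these genes and not independent evidence. All 10 passed the filter for low counts and were among the 15963 genes tested.

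The study neutralized BAFF, a cytokine that B cells need to survive, in male C57BL/6J mice with diet-induced obesity. According to the series' design text, all mice were 6 weeks old when the high-fat diet (HFD, 60% of calories from fat) began, stayed on it for 12 weeks and were then moved to a normal chow diet (NCD, 16% of calories from fat). From that switch until week 18, anti-BAFF Ab (clone Sandy-2) or an isotype control was injected at 2 mg/kg with an interval of 2 weeks. The paper's methods differ on age, with mice 8 or 16 weeks old when obtained. Each mouse gave 1 library. The control group comprised 4 mice, numbered 1, 2, 6 and 9, and the anti-BAFF group 4 mice, numbered 5, 7, 8 and 10, so no mouse here was lean, uninjected or kept on HFD. All fat pads were minced and shaken for 1 hour at 37 °C with collagenase before RNA was taken, and the adipocytes were floated off. No undigested tissue was analysed here, so transcripts made in the living animal and transcripts made during digestion cannot be told apart. In bulk RNA, fewer cells of a type and less RNA per cell cannot be told apart either.

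Immediate early genes are transcribed within minutes of a stimulus, without new protein synthesis, by transcription factors that already sit in the cell. Fos and Fosb proteins pair with Jun and Junb proteins to form AP-1, a family of dimeric transcription factors. Egr1 encodes a zinc finger transcription factor, Atf3 a stress-induced member of the ATF/CREB family, Ier2 a nuclear protein, and Ier3 a regulator of cell survival. Hspa1a and Hspa1b encode the inducible HSP70 chaperone, which refolds damaged proteins and is switched on by the heat shock factor HSF1. In dissociated tissues these genes are widely used as marks of handling, because warm enzymatic digestion is itself a stimulus.

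Promoter sequences are shown for 5 genes, to set 3 AP-1 genes that hold a cAMP response element core beside the near-identical heat shock pair. They come from RefSeq on GRCm38.p6, which held promoters of 8 of the 10 genes, Egr1 and Ier2 not among them. Each line gives positions -130 to -11 before the RefSeq start, 5′ to 3′ on the gene's own strand. Capitals mark TGACG (the core of the cAMP response element), TATAAA (the TATA box), GCGGGGGCG (an EGR element) or GAANNTTC (pair of heat shock half-elements). The windows lie at chr12:85473760-85473879 on the plus strand (Fos), and on the minus strand at chr7:19310056-19310175 (Fosb), chr8:84978759-84978878 (Junb), chr17:34972167-34972286 (Hspa1a) and chr17:34959249-34959368 (Hspa1b).
Fos: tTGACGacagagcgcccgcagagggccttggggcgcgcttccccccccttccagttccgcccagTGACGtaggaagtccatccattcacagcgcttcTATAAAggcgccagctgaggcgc
Fosb: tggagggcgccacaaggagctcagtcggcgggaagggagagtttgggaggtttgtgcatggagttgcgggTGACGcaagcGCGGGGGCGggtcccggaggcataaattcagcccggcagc
Junb: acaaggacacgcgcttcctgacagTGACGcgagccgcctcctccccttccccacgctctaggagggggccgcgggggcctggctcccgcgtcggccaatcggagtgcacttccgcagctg
Hspa1a: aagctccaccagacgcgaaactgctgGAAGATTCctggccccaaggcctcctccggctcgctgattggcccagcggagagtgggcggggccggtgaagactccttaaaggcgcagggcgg
Hspa1b: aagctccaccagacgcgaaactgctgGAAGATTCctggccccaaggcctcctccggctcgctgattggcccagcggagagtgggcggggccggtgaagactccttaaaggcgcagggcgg

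Both strands of the 300 bases around each start, 250 before and 50 after, were searched. TGACG occurred at -129 and -66 of Fos, at -60 of Fosb, at -106 of Junb and at -7 of Atf3, and in 20.8% of all 32851 promoters. GAANNTTC occurred at -104 of Hspa1a and Hspa1b and at -128 of Jun, against 7.86% of all promoters. TATAAA was found at -33 of Fos and at 1 of Junb (13.6% of all promoters), and GCGGGGGCG at -50 of Fosb (2.91%). Matches to the AP-1 element TGANTCA (7.81% of all promoters), to TTCNNGAA (8.52%) and to the CArG box bound by SRF (1.63%) were not among these letters in any of the 8. The Hspa1a and Hspa1b lines above are the same in 120 of 120 bases, and their full promoters in 296 of 300 (98.7%). By contrast, Fos and Fosb shared 82 of 300 bases and Jun and Junb 80 of 300, compared position by position. The letters are a description and carry no evidence of binding in these mice.

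The libraries held 13562340 to 18548024 counts, with a median of 16185500. A count of 3, taken as the lowest level the depth can show, corresponded to 0.165 to 0.219 CPM (counts relative to the TMM-normalized size of each library). The lowest count of any of the 10 genes was 1132, for Hspa1a in anti-BAFF Ab-treated mouse 8, so depth did not limit these values; counting error alone is meant. Mitochondrial genes took 1.09% to 1.4% of counts, lowest in control mouse 1, and rRNA genes 0.0771% to 0.267%. Markers of stromal progenitors (10845 to 13301 summed CPM) and macrophages (8357 to 13326) were high in every library. Adipocyte markers summed to 191 to 237 CPM. The epididymis list, genes of the neighbouring organ, reached 2137 CPM in control mouse 2 and 2163 CPM in anti-BAFF mouse 7. It summed to 842 CPM in control mouse 6, 838 CPM in anti-BAFF mouse 5 and 22.1 to 158 CPM in the remaining mice.

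Transcripts of the 10 genes were abundant in all mice. Together they made up 0.843% to 1.37% of all counts after control Ab and 0.882% to 1.26% after anti-BAFF Ab. Levels of different genes were compared per length, as TPM. Junb was the highest (mean 3666 TPM over the 8 mice, rank 18 of all genes), followed by Fosb (1487 TPM, rank 65), Fos (1428 TPM, rank 69), Egr1 (1240 TPM, rank 88), Atf3 (1049 TPM, rank 111), Jun (868 TPM, rank 141), Ier3 (757 TPM, rank 168) and Ier2 (592 TPM, rank 231). The heat shock genes were lower, with 142 TPM for Hspa1b (rank 1065) and 95.4 TPM for Hspa1a (rank 1589). Neighbours in this order were close: Fosb spanned 1114 to 1915 TPM and Fos 971 to 2029 TPM across mice, and the ranges of Jun (606 to 1091 TPM) and Ier3 (442 to 924 TPM) also overlapped. The lowest mouse for Junb (2257 TPM) was above the highest mouse for Fosb, and the lowest for Ier2 (455 TPM) was above the highest for Hspa1b (193 TPM). This order rests on the deposited gene lengths, such as 2301 bases for Junb and 6243 for Fosb. By mean CPM, which does not use length, Fosb had rank 19 and Junb rank 21 of the genes tested.

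No gene of the 10 was called between treatments. The edgeR quasi-likelihood test called 9 genes lower after anti-BAFF Ab (0.0564% of the 15963 tested) and 0 higher (0%) at an adjusted p of 0.05, and 0 of the 10 genes were among them. Without adjustment, 198 genes were lower (1.24%) and 106 higher (0.664%), and again 0 of the 10 were among them. This count was 1 (Hspa1a) with DESeq2 (0.953% of all genes lower at that p), upper quartile normalization (1.48%) and no filter on low counts (1.55%). With a minimum of 10 counts in every mouse (1.1%) and without mouse 9 (1.05%) it was also 1 (Hspa1a). The unadjusted p of Hspa1a in these fits, from edgeR or DESeq2, lay between 0.0260 and 0.0495. The count among the 10 turned most on single mice. Without mouse 1 it was 5 of the 10 (Fosb, Junb, Egr1, Hspa1a and Hspa1b). In that fit 842 of all genes (5.18%) were lower and 866 (5.33%) higher at that p. Without mouse 5 it was 3 (Fos, Jun and Atf3), when 300 of all genes (1.85%) were lower. The adjusted count of 9 over all genes fell to between 2 and 5 without any one of mice 1, 5, 6, 7, 8, 9 or 10, and stayed at 9 without mouse 2. The log2 fold change (anti-BAFF Ab over control Ab) was below 0 for 9 of the 10 genes, against 7749 of all genes tested (48.5%), and its median was -0.24 against 0.0041. Because several of the 10 rise and fall together from mouse to mouse, these are not 9 separate observations. Some lists of cell type markers leaned to one side between treatments. B cell markers had 10 of 10 log2 fold changes below 0 (median -1.47, summed level 65.4 to 75.2 CPM after control Ab and 27.9 to 49.2 CPM after anti-BAFF Ab), mesothelial markers 10 of 10 (median -0.19), T cell markers 9 of 10 (median -0.18) and smooth muscle and pericyte markers 8 of 10 (median -0.11), while 5 of the 6 neutrophil markers tested were above 0 (median 1.34). Apart from B cell markers, the summed levels of these lists overlapped between the groups. At an unadjusted p of 0.05 from edgeR, 9 B cell markers were lower and 1 neutrophil marker was higher (1.24% and 0.664% of all genes). In the mesothelial, T cell, and smooth muscle and pericyte lists 0 passed. Neutrophil markers summed to 280 CPM in mouse 5. They summed to 56.6 to 85.8 CPM in mice 7, 8 and 10, against 67.0 to 89.5 CPM after control Ab. The part of these cell types in the direction of the 10 genes was not tested. For each of the 10 genes the values of the groups overlapped, and each adjusted p from edgeR was 1.00. The share of all genes tested whose groups overlap was not counted, so this overlap only describes the values.

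**Figure D1:**
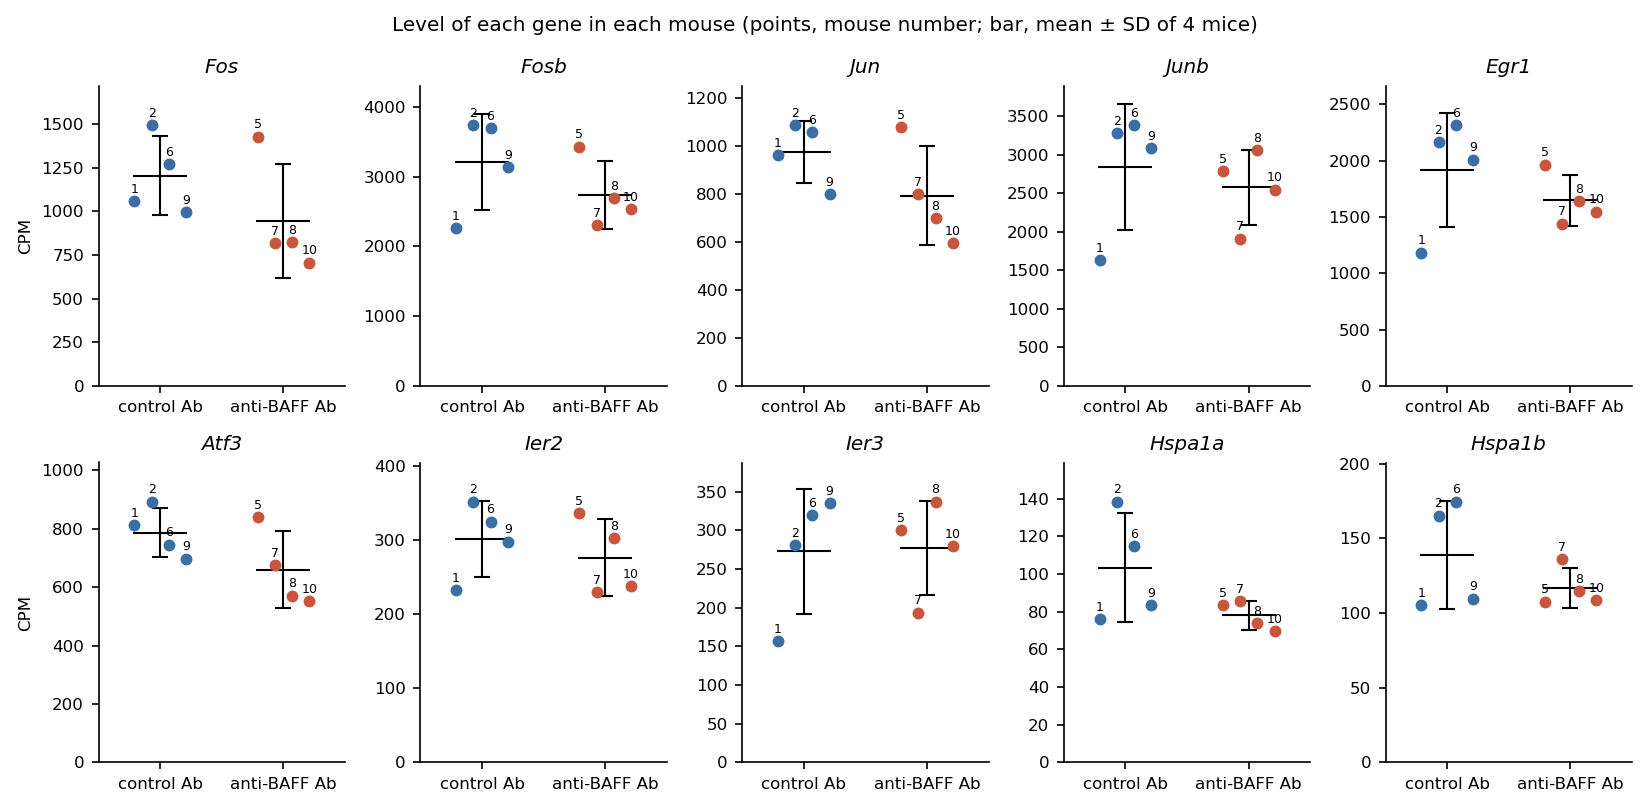
Level of each gene in each mouse, in CPM on linear axes that start at 0. Points are mice, labelled by mouse number, and the black bar is the mean ± SD of 4 mice; the groups overlap in every panel, mouse 1 is the lowest control mouse for Fosb, Junb, Egr1, Ier2, Ier3, Hspa1a and Hspa1b, and mouse 5 is the highest anti-BAFF Ab-treated mouse for Fos, Fosb, Jun, Egr1, Atf3 and Ier2.

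Fos (chromosome 12, 85473890 to 85477273) encodes the partner that AP-1 dimers gain soon after stimulation. Its level was 1057, 1493, 1270 and 993 CPM in control mice 1, 2, 6 and 9, and 1427, 816, 825 and 705 CPM in anti-BAFF mice 5, 7, 8 and 10. Mice 7, 8 and 10 were below every control mouse, whereas mouse 5 was above all but 1 control mouse. The means were 1203 ± 227 CPM and 943 ± 327 CPM (SD, n = 4 mice each). This gave a log2 fold change of -0.35 (standard error 0.23, 95% interval -0.87 to 0.17), and its unadjusted p from edgeR was 0.161. Leaving out mouse 5 moved the log2 fold change to -0.64 (unadjusted p = 0.0040 from edgeR, adjusted p = 1.00). Leaving out mouse 2 moved it to -0.23 (unadjusted p = 0.372 from edgeR). Mouse 5 also had the highest summed level of neutrophil markers, 280 CPM against 56.6 to 89.5 CPM in the other 7 mice. The part of those cells in the level of Fos was not tested.

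Fosb (chromosome 7, 19302696 to 19310051) is the close relative of Fos. Its level was 2265, 3740, 3699 and 3137 CPM in control mice 1, 2, 6 and 9, and 3432, 2304, 2692 and 2531 CPM in anti-BAFF mice 5, 7, 8 and 10. The lowest and the highest values were both those of control mice, 1 and 2. Between treatments Fosb differed by a log2 fold change of -0.23 (standard error 0.19, 95% interval -0.65 to 0.19). This was -0.38 without mouse 1 (unadjusted p = 0.0255 from edgeR, adjusted p = 0.417) and -0.15 without mouse 2 (unadjusted p = 0.495 from edgeR).

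Jun (chromosome 4, 95049034 to 95052222) encodes the partner for Fos proteins and, unlike them, can also pair with itself. Its level was 964, 1089, 1059 and 800 CPM in control mice 1, 2, 6 and 9, and 1080, 800, 701 and 597 CPM in anti-BAFF mice 5, 7, 8 and 10. As for Fos, mouse 5 stood with the high control mice and mouse 10 was the lowest. Next lowest was mouse 8 for Jun but mouse 7 for Fos. For Jun the log2 fold change was -0.30 (standard error 0.18, 95% interval -0.72 to 0.12). Without mouse 5 it was -0.50 (unadjusted p = 0.0099 from edgeR, adjusted p = 1.00), and without mouse 10 it was -0.18 (unadjusted p = 0.329 from edgeR). The antisense gene Junos overlaps Jun by 689 bases and had 6 to 25 counts a library, against at least 10737 for Jun.

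Junb (chromosome 8, 84974484 to 84978718) encodes a Jun protein that often restrains the activity of Jun. It was lowest in control mouse 1 (1631 CPM) and next lowest in anti-BAFF mouse 7 (1908 CPM). The other control mice 2, 6 and 9 had 3282, 3383 and 3080 CPM, and anti-BAFF mice 5, 8 and 10 had 2786, 3060 and 2546 CPM. Apart from mouse 1, each control mouse was above each anti-BAFF mouse. Its log2 fold change was -0.14 (standard error 0.24, 95% interval -0.68 to 0.40). It moved to -0.35 without mouse 1 (unadjusted p = 0.0432 from edgeR, adjusted p = 0.461) and to -0.04 without mouse 7 (unadjusted p = 0.875 from edgeR). Prdx2 on the opposite strand overlaps Junb by 351 bases and had 1415 to 2131 counts, and how reads there were assigned is not given in the sources used here.

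Egr1 (chromosome 18, 34859823 to 34864984) followed the pattern of Junb. Its level was 1183, 2162, 2316 and 2010 CPM in control mice 1, 2, 6 and 9, and 1965, 1442, 1642 and 1547 CPM in anti-BAFF mice 5, 7, 8 and 10. Control mice 2, 6 and 9 were above all anti-BAFF mice and control mouse 1 was below all of them. Between treatments its log2 fold change was -0.22 (standard error 0.20, 95% interval -0.68 to 0.24). Without mouse 1 it was -0.41 (unadjusted p = 0.0068 from edgeR, adjusted p = 0.337), and without mouse 6 it was -0.11 (unadjusted p = 0.616 from edgeR).

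Atf3 (chromosome 1, 191170296 to 191218039) encodes a factor that dampens inflammatory transcription and is also induced through the integrated stress response. Its level was 811, 893, 746 and 697 CPM in control mice 1, 2, 6 and 9, and 839, 676, 571 and 553 CPM in anti-BAFF mice 5, 7, 8 and 10. Mice 7, 8 and 10 were below every control mouse, as for Fos, and mouse 5 was second of the 8. For Atf3 the log2 fold change was -0.25 (standard error 0.15, 95% interval -0.59 to 0.08). It was -0.41 without mouse 5 (unadjusted p = 0.0107 from edgeR, adjusted p = 1.00) and -0.18 without mouse 10 (unadjusted p = 0.284 from edgeR).

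Ier2 (chromosome 8, 84661331 to 84662852) ranged from 232 to 352 CPM in the control mice and from 229 to 336 CPM in the anti-BAFF mice. It varied least of the 10, 1.53-fold between the highest and lowest mouse. Its log2 fold change was -0.13 (standard error 0.16, 95% interval -0.49 to 0.24). Ier3 (chromosome 17, 35821684 to 35822923) varied most, 2.15-fold, with 157, 281, 320 and 335 CPM in control mice 1, 2, 6 and 9 and 300, 193, 337 and 279 CPM in anti-BAFF mice 5, 7, 8 and 10. Mice 1 and 7 were the lowest, as for Junb. The log2 fold change of Ier3 was 0.02 (standard error 0.24, 95% interval -0.53 to 0.58), and its sign turned when single mice were left out.

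Hspa1a (chromosome 17, 34969190 to 34972156) had the lowest unadjusted p of the 10, 0.0563 from edgeR (adjusted p = 1.00). Its level was 75.9, 138, 115 and 83.6 CPM in control mice 1, 2, 6 and 9, and 83.6, 85.8, 73.9 and 69.5 CPM in anti-BAFF mice 5, 7, 8 and 10. Control mice 2 and 6 stood above the other 6 mice, which lay between 69.5 and 85.8 CPM. Between treatments Hspa1a differed by -0.40 on the log2 scale (standard error 0.18, 95% interval -0.82 to 0.01), and it was -0.23 without mouse 2 and -0.54 without mouse 1 (unadjusted p = 0.0081 from edgeR, adjusted p = 0.349).

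Hspa1b (chromosome 17, 34956436 to 34959238) was measured at 105, 165, 175 and 110 CPM in control mice 1, 2, 6 and 9, and at 108, 136, 115 and 109 CPM in anti-BAFF mice 5, 7, 8 and 10. Control mice 2 and 6 were again the highest, followed by mouse 7. Its log2 fold change was -0.25 (standard error 0.18, 95% interval -0.65 to 0.15). It was -0.38 without mouse 1 (unadjusted p = 0.0430 from edgeR, adjusted p = 0.458) and -0.12 without mouse 6 (unadjusted p = 0.509 from edgeR). Both genes are near-identical copies that lie side by side, so reads may be split between them and their separate values are uncertain. The ratio of Hspa1b to Hspa1a counts was between 1.19 (mouse 2) and 1.58 (mouse 7). Summed over both genes, the control mice spanned 181 to 304 CPM (242 ± 63.6, SD, n = 4) and the anti-BAFF mice 178 to 222 CPM (195 ± 18.8, SD, n = 4).

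**Figure D2:**
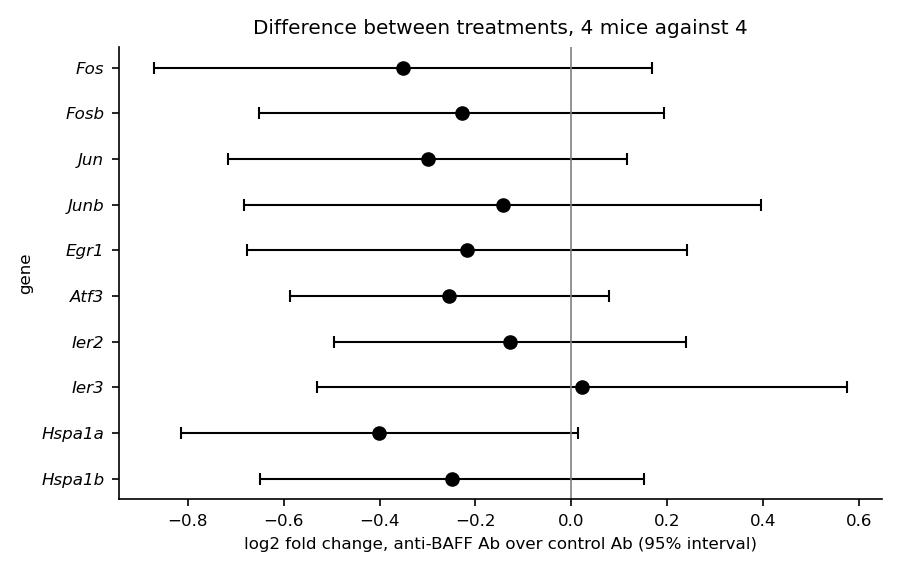
Log2 fold change of each gene, anti-BAFF Ab over control Ab, from edgeR's fit (points) with its 95% interval (bars), 4 mice against 4. The intervals of all 10 genes include 0, and the points lie between -0.40 for Hspa1a and 0.02 for Ier3.

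Spread between mice of the same treatment was, in the median, larger for these genes than over all genes tested. The within-group SD of log2 CPM had a median of 0.30 over the 10 genes, against 0.23 over all genes tested and 0.17 over the 1000 most abundant. The highest mouse was 1.89 times the lowest in the median of the 10, against 1.59 over all genes tested and 1.40 over the 1000 most abundant. Ier3 (SD 0.43), Junb (0.41) and Fos (0.37) varied most within groups and Atf3 (0.22) least. These figures are a description, given without a test.

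From mouse to mouse, the pairs of genes that moved together did not follow the split into AP-1 and other genes. Of 45 pairs, 42 had a positive Pearson r of log2 CPM over the 8 mice, and the median r was 0.61. After Benjamini-Hochberg adjustment over the 45 pairs, 12 passed an adjusted p of 0.05 by the exact permutation test of Pearson's r and 7 by that of Spearman's rho (two-sided, the smallest p that 8 mice can give is 2.48e-05). All values come from the same 8 libraries. With the group means removed, the number of pairs that passed was also 12. With 1 mouse left out it was 5 to 10 (5 without mouse 1, 2, 9 or 10). Without mice 2 and 7, the highest in epididymis genes, it was 0, but the r of the 12 pairs were then 0.78 to 0.97. With the 6 mice left, the smallest exact permutation p possible is 0.00139. Fos and Jun reached it, but Fosb and Junb had an exact permutation p of 0.0375, and the lowest adjusted p was 0.0625. Whether the loss came from leaving out mice 2 and 7 or from having fewer mice was not tested.

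Fos, Jun and Atf3 formed one set. Fos and Jun had r = 0.95 (rho = 0.93, exact permutation p = 0.000347 and 0.00223, adjusted p = 0.00781 and 0.0167). Jun and Atf3 had r = 0.95 (rho = 0.95, exact permutation p = 0.000645 and 0.00114, adjusted p = 0.00921 and 0.0128), and Fos and Atf3 had r = 0.91 (rho = 0.95, exact permutation p = 0.00293 and 0.00114, adjusted p = 0.0209 and 0.0128). Without the 2 mice farthest from the median, these r were 0.93, 0.85 and 0.81. In this set mice 2 and 5 were the highest pair for Fos, Jun and Atf3, and mouse 10 was the lowest.

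Fosb, Egr1, Ier2, Junb and Ier3 formed another. Fosb and Egr1 had r = 0.96 (rho = 0.95, exact permutation p = 0.000198 and 0.00114, adjusted p = 0.00781 and 0.0128), and 0.98 without mice 1 and 2. Fosb and Ier2 had r = 0.94 (rho = 0.93, exact permutation p = 0.00171 and 0.00223, adjusted p = 0.0154 and 0.0167), and Junb and Egr1 had r = 0.91 (rho = 0.98, exact permutation p = 0.000818 and 0.000397, adjusted p = 0.00921 and 0.0128); without the 2 farthest mice these were 0.90 and 0.78. Fosb and Junb had r = 0.85 (rho = 0.90, exact permutation p = 0.00461 and 0.00456, adjusted p = 0.0209 and 0.0293), and 0.79 without mice 1 and 2. Junb with Ier2 (r = 0.85), Egr1 with Ier2 (0.88) and Egr1 with Ier3 (0.80) passed by Pearson's r only, with rho of 0.76, 0.81 and 0.64 and adjusted exact permutation p of 0.0209, 0.0209 and 0.0461 for r and 0.165, 0.122 and 0.235 for rho.

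Among the 12 pairs that passed, 3 lost much of their r without the 2 farthest mice, a step that also narrows the range of values. Junb and Ier3 had r = 0.94 (rho = 0.71, exact permutation p = 0.00345 and 0.0576, adjusted p = 0.0209 and 0.173), but r = 0.41 without mice 1 and 7, the lowest for both genes. Hspa1a and Hspa1b had r = 0.89 (rho = 0.71, exact permutation p = 0.0115 and 0.0576, adjusted p = 0.0461 and 0.173), and 0.45 without mice 2 and 6. Egr1 and Ier3 went from r = 0.80 to 0.56 without mice 1 and 6. With 1 mouse left out at a time, r was 0.88 to 0.98 for Junb and Ier3. It was 0.88 to 0.91 for Hspa1a and Hspa1b and 0.58 to 0.89 for Egr1 and Ier3. Other pairs with these genes, which had not passed, moved in different ways. Fosb with Ier3 went from 0.69 to 0.66, Egr1 with Hspa1a from 0.69 to 0.65, and Junb with Hspa1a from 0.49 to 0.77. Ier2 with Ier3 fell from 0.72 to 0.14, Egr1 with Hspa1b from 0.58 to 0.23, and Fos with Hspa1a from 0.74 to 0.47.

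The sets were named after these values were seen, by which pairs passed. That 0 of the 15 pairs between the sets passed therefore follows from the choice and is no evidence for the sets. Those pairs had a median r of 0.43 and a range of -0.24 to 0.78. The highest were Fos with Fosb (r = 0.78, rho = 0.71), Fos with Ier2 (r = 0.76, rho = 0.79), Fosb with Jun (r = 0.61, rho = 0.60) and Fos with Egr1 (r = 0.60, rho = 0.60), so some of these r were as high as pairs within the second set, such as Fosb with Ier3 (r = 0.69). Among the lowest, Jun and Junb, whose proteins share the same Fos partners, had r = 0.13 (rho = 0.33, exact permutation p = 0.741 and 0.428, adjusted p = 0.782 and 0.520). Fos and Ier3 had r = 0.15 (rho = 0.12, exact permutation p = 0.735 and 0.793, adjusted p = 0.782 and 0.830), Junb and Atf3 r = -0.01 (rho = 0.26), and Atf3 and Ier3 r = -0.24 (rho = -0.14), the lowest of all 45. Whether r differed between pairs was not tested. Without mouse 1, the r of Junb and Atf3 was 0.31.

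**Figure D3:**
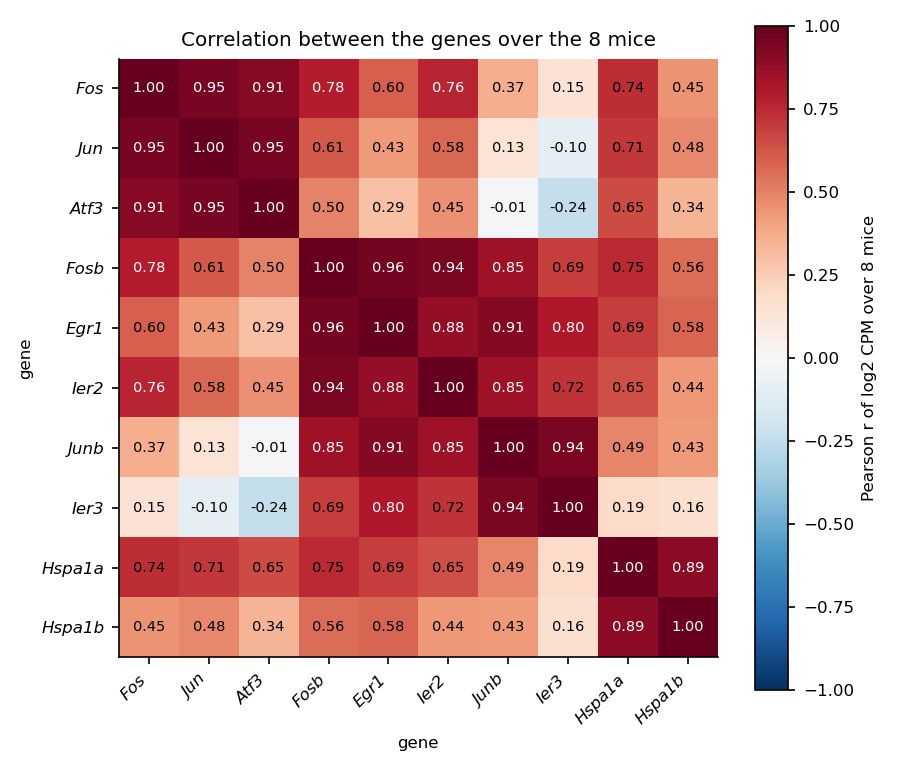
Pearson r of log2 CPM over the 8 mice for each pair of the 10 genes, written in each square and coloured from -1 (blue) to 1 (red). Fos, Jun and Atf3 form a block with r of 0.91 to 0.95, while the values between Ier3 and these 3 genes are between -0.24 and 0.15.

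**Figure D4:**
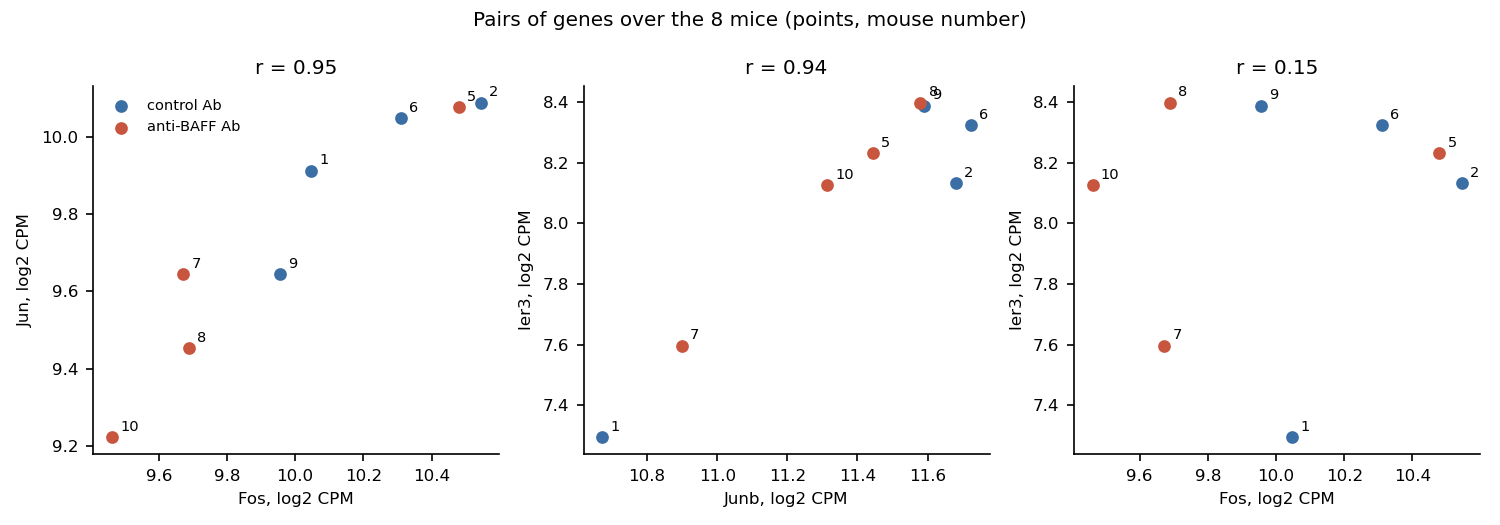
Log2 CPM of 3 pairs of genes in each of the 8 mice (points, labelled by mouse number and coloured by treatment). Fos and Jun (r = 0.95) are spread along a line, Junb and Ier3 (r = 0.94) are drawn out by mice 1 and 7, and Fos and Ier3 (r = 0.15) show no line.

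In the 2 mice lowest for the second set, markers of other cell types stood apart too. Control mouse 1, the lowest for Fosb, Junb, Egr1 and Ier3, had the lowest summed level of the 10 endothelial markers (1087 CPM, against 1214 to 1945 CPM in the other mice), of the 10 mesothelial markers (374 against 624 to 1090 CPM) and of the 10 smooth muscle and pericyte markers (541 against 827 to 1406 CPM). It also had the highest summed level of macrophage markers (13326 against 8357 to 11005 CPM). Anti-BAFF mouse 7, next lowest for Fosb, Junb, Egr1 and Ier3, was next lowest for endothelial markers (1214 CPM) and for smooth muscle and pericyte markers (827 CPM). Elsewhere the order differed: anti-BAFF mouse 10 was second highest for endothelial markers (1943 CPM) but had rank 6 of 8 for all 5 genes of the set. Anti-BAFF mouse 5 was low for endothelial (1396 CPM), smooth muscle and pericyte (840 CPM) and mesothelial (624 CPM) markers. It had rank 2 for Ier2, rank 3 for Fosb, rank 4 for Egr1 and Ier3, and rank 5 for Junb. None of these markers was at 0 in all mice. The part of cell composition in the levels of these genes was not tested.

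**Figure D5:**
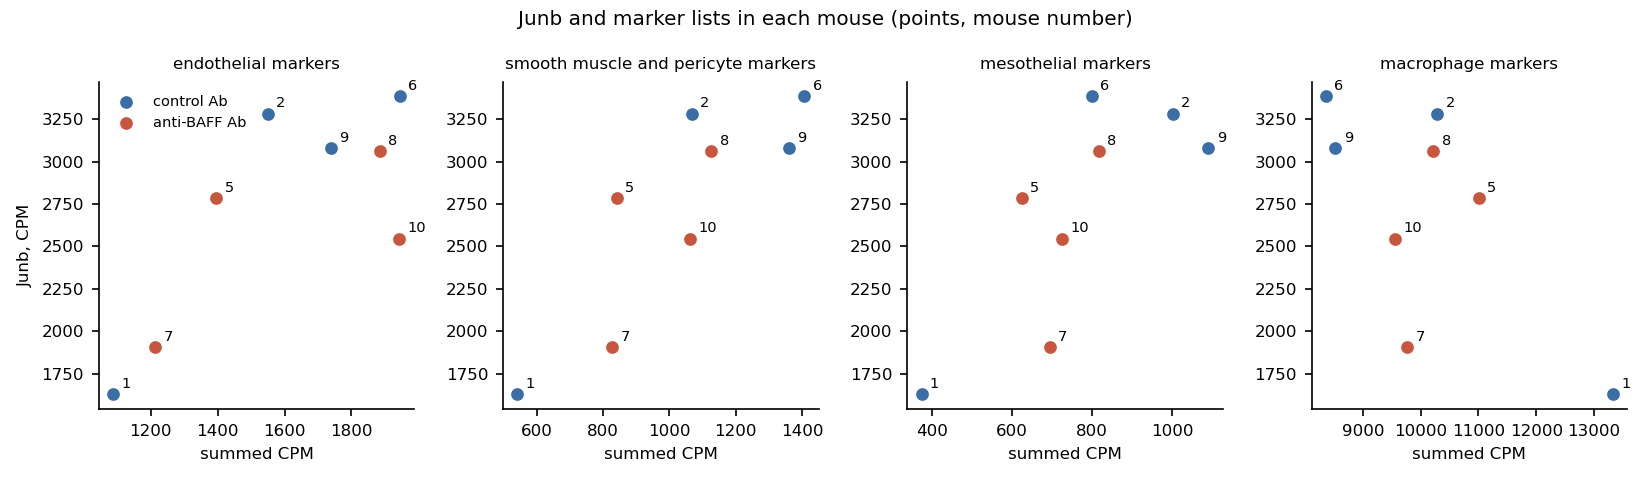
Junb (CPM, vertical axes, which do not start at 0) against the summed CPM of 4 lists of 10 marker genes (horizontal axes) in each mouse, labelled by mouse number and coloured by treatment. Mouse 1 has the lowest Junb (1631 CPM), the lowest endothelial, smooth muscle and pericyte, and mesothelial sums and the highest macrophage sum (13326 CPM).

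Genes outside the 10 whose log2 CPM was most like that of Fos, among 14855 genes with a mean of at least 1 CPM, were Gon4l (r = 0.97), Cd22 (0.96), Gm8355 (0.96), Klf2 (0.96), Plk3 (0.96), Slamf6 (0.95), Ankrd13d (0.95), Btnl2 (0.94), Vars2 (0.93) and Hif3a (0.93). Klf2 and Plk3 are immediate early genes themselves, encoding a zinc finger factor and a stress-responsive kinase, and Cd22 encodes a B cell surface lectin. Most like Hspa1a were Rps26-ps1 (r = 0.96), Cys1 (0.95), Tmco4 (0.95), Ppp2r3d (0.95), Tcf3 (0.94), Rps4l (0.94), Gm9573 (0.94), Acad8 (0.93), Zfas1 (0.92) and Btbd2 (0.92). Junb was added as a query after the values were seen, and its closest genes were Akr1b7 (r = 1.00), Prdm16 (0.99), Socs3 (0.99), Slc10a6 (0.99), Csrnp1 (0.99), Nop53 (0.98), Pim3 (0.98), Bambi (0.98), Plekhf1 (0.98) and Arhgef15 (0.98). Socs3, a feedback inhibitor of cytokine signalling, and Csrnp1, a nuclear protein induced with AP-1, are also on the list of immediate early genes. With 8 mice and 14855 genes, such r are selected as the highest and are a description only.

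Related genes were described from 5 lists. Among the other immediate early genes, 53 were tested, and the log2 fold change was below 0 for 38 and above for 15, with a median of -0.05 and a range of -0.32 to 0.22, and 0 passed at either an adjusted or an unadjusted p of 0.05. At the unadjusted p, 7 were lower without mouse 1 (5.18% of all genes in that fit) and 4 without mouse 5 (1.85%), and 2 were higher without mouse 9 (0.66% of all genes). The most abundant were Zfp36, which destabilizes inflammatory mRNAs (2151 ± 358 CPM after control Ab, 1948 ± 359 CPM after anti-BAFF Ab, SD, n = 4), and the nuclear receptor Nr4a1 (1590 ± 443 and 1427 ± 337 CPM). Nr4a1 was lowest in mouse 1 (926 CPM) and mouse 7 (1012 CPM), as Junb was. The smallest unadjusted p below 0 belonged to Plk3 (log2 fold change -0.23, standard error 0.10), the factor Klf4 (-0.29, standard error 0.20) and the clock gene Per1 (-0.32, standard error 0.21). Above 0 they belonged to Egr3, a relative of Egr1 (0.21, standard error 0.10), Gadd45a, a stress response gene (0.16, standard error 0.10), and Klf10 (0.07, standard error 0.08).

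Other heat shock and chaperone genes varied little. Of 28 tested, 17 were below 0 and 11 above, the median log2 fold change was -0.02 and 0 passed at either threshold; without mouse 1, 4 were lower and 1 higher at the unadjusted p, against 5.18% and 5.33% of all genes. The constitutive chaperones Hspa8 (1666 ± 113 CPM after control Ab, 1574 ± 124 CPM after anti-BAFF Ab, SD, n = 4) and Hsp90ab1 (1156 ± 93.7 and 1150 ± 33.6 CPM) were the most abundant. The median within-group SD of the list was 0.19 on the log2 scale, against 0.34 for the other immediate early genes. The lowest unadjusted p below 0 were those of Hsph1 (log2 fold change -0.18), of Dnajb1, an HSP70 cochaperone (-0.21), and of Dnaja4 (-0.28), and those above 0 of Hspa4 (0.07), Hspd1 (0.07) and Hspa9 (0.04). Dnajb1 was highest in control mice 2 and 6 (213 and 199 CPM), the mice highest for Hspa1a, and lowest in mouse 1 (132 CPM).

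Upstream regulators, such as SRF cofactors, CREB family members, MAP kinases and heat shock factors, numbered 25 tested, with 8 below 0, 17 above, a median of 0.03 and 0 past either threshold. The named ones below 0 were Batf3 (log2 fold change -0.31), Jdp2 (-0.19) and Hsf1 (-0.12, 31.9 ± 1.46 CPM after control Ab, 29.4 ± 1.29 CPM after anti-BAFF Ab, SD, n = 4), and those above were Elk1 (0.14), Mapkapk2 (0.11) and Atf2 (0.07), with Mapk3 at 0.02. Of 19 genes of the integrated stress and unfolded protein responses, 13 were below 0 and 6 above, with a median of -0.05 and 0 past either threshold. The ER chaperones Hspa5 (log2 fold change -0.07) and Calr (-0.07) were the most abundant, Manf (-0.11) and Pdia4 (-0.09) had the lowest unadjusted p below 0, and Asns (0.25), Chac1 (0.63) and Ddit4 (0.19) had the lowest above 0.

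Early inflammatory genes, which digestion can also induce, had mostly positive values. Of 20 tested, 4 were below 0 and 16 above, with a median log2 fold change of 0.17, against 48.5% of all genes below 0, and 0 passed either threshold. At the unadjusted p, 2 were higher without mouse 1 (5.33% of all genes), 1 without mouse 5 (0.739%) and 1 without mouse 7 (0.557%). The chemokines Cxcl1 (837 ± 285 CPM after control Ab, 985 ± 270 CPM after anti-BAFF Ab, SD, n = 4) and Cxcl2 (618 ± 68.6 and 662 ± 97.5 CPM) were the most abundant. Ccl3 (log2 fold change 0.34), the cytokine Lif (0.59) and Ccl2 (0.30) had the lowest unadjusted p above 0, and Areg (-0.51), the prostaglandin synthase Ptgs2 (-0.23) and Cxcl10 (-0.03) below 0. Whether this list differed from the immediate early genes was not tested.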

How the data were processed

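RNA from the SVF of 8 mice was sequenced by a service laboratory. The authors deposited raw counts per gene, with a column for each mouse and the gene length in bases (an other value); the labels give the build mm10, while the aligner, counting tool, annotation release and use of strand are not given in the sources used here. Mice were grouped by the treatment in their labels. Nothing else was pooled, and no replicates were repeated libraries (smallest chi-square per degree of freedom within a group 7.65).

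The counts were tested in R 4.3.3 with edgeR 4.0.16: filterByExpr (minimum count 10), TMM normalization, the quasi-likelihood test (prior degrees of freedom 3.14) with treatment as the only term, and Benjamini-Hochberg adjustment over 15963 genes. CPM used TMM-scaled library sizes, log2 CPM a prior count of 2, and TPM the deposited gene lengths. Correlations used scipy 1.17.1 under Python 3.11.15. The scripts were tested on simulated data. DESeq2 1.42.0, limma 3.58.1 on log2(FPKM + 1), other normalizations and filters, and leaving out mice were the alternatives.

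The genes and lists were chosen with earlier results of these data known. Named genes were all 10 genes, then from each list the genes past the adjusted threshold, otherwise up to 3 with the smallest unadjusted p in each direction and up to 2 with the highest level, and the 10 genes most like Fos and Hspa1a. Promoter sequences came from RefSeq on GRCm38.p6, which has the same coordinates as mm10. The p-values from edgeR compare the treatments against the variation between mice, which includes differences in dissection, digestion and library preparation. Those of the correlations come from permuted pairings of the mice and do not test treatment.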

Additional observations from a re-analysis of the deposited data

Results flagged for a closer look

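Fos in anti-BAFF Ab-treated mouse 5 (1427 CPM) stood far from the other 3 mice of its group (705 to 825 CPM): its gap to the nearest of them was 0.834 of the range of the group. Of the 20 groups of 4 values examined (10 genes in 2 treatments), 1 held such a value, and chance gives about 1 in 20.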

How the results depend on the processing

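No alternative brought any of the 10 genes past an adjusted p of 0.05; the lowest was 0.337 without mouse 1. The number of the 10 with a log2 fold change below 0 was 9, and 7 to 10 under the alternatives. The number of genes called among all tested was 9. It was 70 with DESeq2, 2 with edgeR's robust option and 19 with no filter on low counts. It was 3 without the mice highest in epididymis genes (2 and 7), and 2 to 9 when each mouse was left out. The number of gene pairs past an adjusted p was 12 of 45, and 5 to 10 with 1 mouse left out. Without mice 2 and 7 it was 0, where the r of the 12 pairs stayed at 0.78 to 0.97 and the lowest adjusted p was 0.0625. Fewer mice also raise the smallest p possible, and the part of each in this loss was not tested.

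The log2 fold change of Ier3 turned negative under upper quartile normalization (-0.0051) and when mouse 1 (-0.19), mouse 5 (-0.03) or mouse 8 (-0.10) was left out, and was -0.19 to 0.15 over all mice left out in turn. Without mice 2 and 7, those of Junb and Ier2 were 0.031 and 0.015. The r of Junb and Atf3 was 0.039 with library size only, against -0.01 in the main setting, and -0.23 (without mouse 2) to 0.31 (without mouse 1) with each mouse left out. That of Jun and Ier3, -0.10, was -0.21 (without mouse 6) to 0.081 (without mouse 1). The cause was not tested. No paired analysis was possible because the mouse numbers differ between the groups. With 4 mice a group, an unadjusted p of Hspa1a moved between 0.0081 and 0.177. Undigested tissue and strand use limit what these levels show.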
